A study of Homo sapiens with 8 samples.

Results

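The genes described here are the immediate early genes and the feedback inhibitors of the ERK kinase pathway, followed in prostate cancer cell lines that respond to the androgen receptor antagonist enzalutamide and in lines labelled as resistant to it. They were chosen by name: a row of a deposited table was taken where its gene symbol was one of 33 fixed members, out of 16126 genes listed in any of the 3 tables. All 33 members were listed in the CWR-R1 and VCaP tables, and 27 in the C4-2B table, where FOS, FOSL1, EGR3, CTGF, DUSP6 and SPRY4 were not listed. Members were described by role, as 8 AP-1 factors, 7 EGR, KLF and other nuclear factors, 8 other immediate early genes and 10 DUSP and SPRY feedback genes.

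The study sequenced polyadenylated RNA of resistant (ENZR) and sensitive cells of 3 prostate cancer lineages. C4-2BENZR and C4-2B had 2 libraries each, titled as biological replicates, and both carried a luciferase and GFP transgene. CWR-R1ENZR, CWR-R1, VCaPENZR and VCaP had 1 library each, with no transgene in their labels. Each group is 1 cell line, so replicates are repeats of a single resistant and a single sensitive line, and the p-values below measure only the spread between those libraries. The labels give neither an enzalutamide dose nor whether the drug was in the medium at harvest.

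Immediate early genes are transcribed within minutes of a growth factor, serum or stress signal, from promoters that need no new protein synthesis. FOS and JUN proteins pair into the AP-1 factor, EGR and KLF proteins are zinc finger factors, and CTGF and CYR61 are secreted matricellular proteins. ERK activity also switches on its own brakes: dual-specificity phosphatases (DUSP), which dephosphorylate MAP kinases, and Sprouty (SPRY) and SPRED proteins, which act upstream at the level of RAS and RAF.

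The libraries held 14503586 to 20248655 reads in listed genes, and a level below is a gene's reads scaled by library size. The 3 tables were scaled separately, so levels from different tables are set side by side only as a description. The epithelial keratins KRT8 and KRT18 were read in every library, and the luminal marker KLK3 in all but CWR-R1ENZR (0 reads, against 29 in CWR-R1). The summed level of 9 luminal prostate markers was 4370 and 4482 in C4-2BENZR against 5504 and 5521 in C4-2B, 3815 in CWR-R1ENZR against 3129 in CWR-R1, and 6283 in the library labelled VCaPENZR against 7139 in VCaP. ERG, the ETS factor fused to TMPRSS2 in VCaP cells, had 3 reads in the library labelled VCaPENZR, a level of 0.179, against 428 in VCaP. Across the 12868 genes listed in every table, log2 levels of the library labelled VCaPENZR correlated with r = 0.940 with CWR-R1ENZR, 0.890 with CWR-R1 and 0.728 with VCaP. That library therefore goes against its label. Every VCaP comparison below is a contrast of the library labelled VCaPENZR with VCaP, from which no change within the VCaP lineage is drawn.

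Markers of other cell types summed to less than the luminal markers in every library. The fibroblast sums were not low beside the levels of several members below. The summed level of 6 fibroblast markers, of which 3 were listed in the C4-2B table and 2 in each other table, was 54.9 and 50.6 in C4-2BENZR against 17.7 and 13.4 in C4-2B, 66.4 in CWR-R1ENZR against 33.8 in CWR-R1, and 17.3 in the library labelled VCaPENZR against 29.5 in VCaP, with COL1A1 the main one and COL1A2, COL3A1 and DCN not listed. For 5 endothelial markers the sum, mostly VWF, was 3.54 and 3.88 in C4-2BENZR against 7.53 and 7.25 in C4-2B, 27.5 in CWR-R1ENZR against 5.73 in CWR-R1, and 18.6 in the library labelled VCaPENZR against 3.13 in VCaP, with PECAM1, CDH5 and TEK not listed. For 7 blood markers it was 10.1 and 12.6 in C4-2BENZR against 15.9 and 18.2 in C4-2B, 5.63 in CWR-R1ENZR against 4.86 in CWR-R1, and 12.6 in the library labelled VCaPENZR against 9.56 in VCaP, with PTPRC, CD3E and HBB not listed. The part of these markers in the results below was not tested.

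Promoters are shown for members whose windows hold a textbook element and whose transcripts were at least 2-fold apart in some contrast. For EGR1 this held only in the contrast of the library labelled VCaPENZR with VCaP. Among members whose window held an element, CTGF (current symbol CCN2) had the largest ratio in CWR-R1 and DUSP8 the largest in size in C4-2B, while JUND and EGR1 were added after their values and motifs were seen. Each sequence is the 250 bases before the RefSeq start on GRCh38.p14, written 5′ to 3′ on the gene's strand, and capitals mark the motif. CTGF lies at chr6:131951373-131951622 (minus strand), with GGAATG, the element bound by TEAD factors, in capitals.
CTGF: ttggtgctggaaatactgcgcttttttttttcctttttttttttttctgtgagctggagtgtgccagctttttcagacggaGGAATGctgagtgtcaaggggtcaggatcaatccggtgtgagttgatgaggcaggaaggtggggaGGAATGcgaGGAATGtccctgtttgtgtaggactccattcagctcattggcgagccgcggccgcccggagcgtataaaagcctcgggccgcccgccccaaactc
DUSP8 lies at chr11:1572272-1572521 (minus strand), with TGACGTCA, the full cyclic AMP response element that ATF and JUN proteins can bind, in capitals.
DUSP8: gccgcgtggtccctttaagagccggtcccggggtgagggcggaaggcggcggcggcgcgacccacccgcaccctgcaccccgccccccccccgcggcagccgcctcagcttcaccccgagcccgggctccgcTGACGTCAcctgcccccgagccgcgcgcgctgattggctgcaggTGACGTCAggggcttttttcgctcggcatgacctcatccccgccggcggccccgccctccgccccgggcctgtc
JUND lies at chr19:18281623-18281872 (minus strand), with the same TGACGTCA in capitals.
JUND: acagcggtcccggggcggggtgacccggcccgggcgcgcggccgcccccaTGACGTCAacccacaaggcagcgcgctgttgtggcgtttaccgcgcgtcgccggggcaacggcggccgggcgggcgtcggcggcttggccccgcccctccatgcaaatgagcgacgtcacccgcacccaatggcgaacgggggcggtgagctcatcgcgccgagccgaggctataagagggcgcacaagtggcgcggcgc
EGR1 lies at chr5:138465229-138465478 (plus strand), with the CArG box, the element of the serum response factor SRF, in capitals.
EGR1: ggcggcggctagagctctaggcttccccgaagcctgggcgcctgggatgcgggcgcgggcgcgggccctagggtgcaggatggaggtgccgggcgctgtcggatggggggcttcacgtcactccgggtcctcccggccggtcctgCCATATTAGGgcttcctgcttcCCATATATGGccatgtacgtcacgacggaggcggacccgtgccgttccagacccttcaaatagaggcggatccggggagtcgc

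The CTGF window held 3 matches to GGAATG, which began 169, 104 and 95 bases before the start. DUSP8 held 2 matches to TGACGTCA, beginning 118 and 74 bases before the start, and JUND held 1, beginning 200 bases before it. The RefSeq start of DUSP8 lay outside its transcripts in the GENCODE annotation, so the DUSP8 distances hold for the RefSeq start only. EGR1 held 2 CArG boxes, beginning 105 and 83 bases before the start. RefSeq windows were matched for 25 of the 33 members, and these 25 had 33 windows. None was matched for FOSL1, EGR3, KLF10, MYC, IER3, CYR61, DUSP4 and DUSP5. A member was counted where any of its windows held the motif, whereas the percent is over windows. For each motif the matching windows were as many as the members counted, so their like share is out of 33 windows. With both strands searched, the CArG box was in 1.16% of all 35116 windows in the table and in 2 of the 25 members, EGR1 and SRF. TGACGTCA was in 1.65% of all windows and in 3 members, DUSP8, JUND and ZFP36L1. GGAATG was in 11.9% of all windows and in 3 members, CTGF, ZFP36 and ZFP36L1. TGANTCA, the AP-1 element, was in 6.57% of all windows and in 0 members. GCGNGGGCG, the EGR element, was in 8.41% of all windows and in 7 members, namely EGR1, KLF4, KLF6, SPRY1, SPRY2, SPRY4 and SRF. CCGGAAG, an ETS element, was in 8.52% of all windows and in 2 members, IER2 and SPRY1. The windows of PHLDA1 and DUSP6, which also had large ratios, held none of these 6 motifs. A match shows these letters in the window and nothing about binding.

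C4-2B was tested with limma, a linear model fitted to log2(level + 1) over all genes with a level of at least 1 in at least 2 libraries, with p-values adjusted by Benjamini-Hochberg over all of them. In C4-2BENZR, 5 of the 26 members tested rose and 11 fell against C4-2B at a limma adjusted p below 0.05, a called share of 61.5%, close to the 56.8% of all 13280 genes called (27.8% higher and 29.0% lower). The groups did not overlap for 18 of the 26, against 77.4% of all genes. Calls of at least 2-fold were 0 higher and 3 lower (PHLDA1, DUSP8 and SPRY1), where 9.92% of all genes had such a call in either direction. JUN was the nearest to a 2-fold rise, which edgeR and DESeq2 each counted, giving 1 member there. The count of lower members was smaller without either C4-2BENZR replicate, as was that over all genes, but such a fit leaves 1 library in that group. Scaling by total counts alone moved the median log2 ratio of all genes to 0.10, with 4748 genes higher and 2924 lower in place of 3691 higher and 3856 lower, and left 6 members higher and 8 lower. SPRY2, 1 of the 11 lower, passed the filter only through the C4-2B libraries, where it was high. In bulk RNA, fewer cells carrying a transcript and less of it per cell cannot be told apart.

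For the lineages with 1 library a group, the ratio of level + 1 was taken for genes with a level of at least 5 in either library. FOSB and DUSP5 in CWR-R1, and FOS, FOSB, ATF3, IER3, IER5, CTGF, DUSP5, DUSP6 and DUSP10 in the VCaP contrast, passed this filter only through the library labelled resistant, where they were high. Their direction was set by the filter, so they add no support to the counts and medians of higher members below. In CWR-R1ENZR, 17 of 31 members past that filter were at least 2-fold higher than in CWR-R1 and 1 was at least 2-fold lower, where 20.1% of all 12462 genes were that far apart, 9.79% higher and 10.3% lower. The members' median log2 ratio was 1.07, against -0.02 over all genes. In the library labelled VCaPENZR, 24 of 31 were at least 2-fold higher than in VCaP and 1 at least 2-fold lower, with a median of 1.92 against 0.00 over all genes. The background there was 43.1% of 12502 genes, 21.1% higher and 22.0% lower. With 1 library a group these ratios carry no test, and their 95% exact binomial intervals cover counting error only. In C4-2B the members' median log2 ratio was -0.06, against -0.00 over all genes. The authors' deposited tables gave a false discovery rate below 0.05 for 5 members higher and 11 lower in C4-2BENZR (55.6% of all listed genes called), 10 higher and 0 lower in CWR-R1ENZR (9.89%), and 19 higher and 1 lower in the library labelled VCaPENZR (31.0%).

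**Figure D1:**
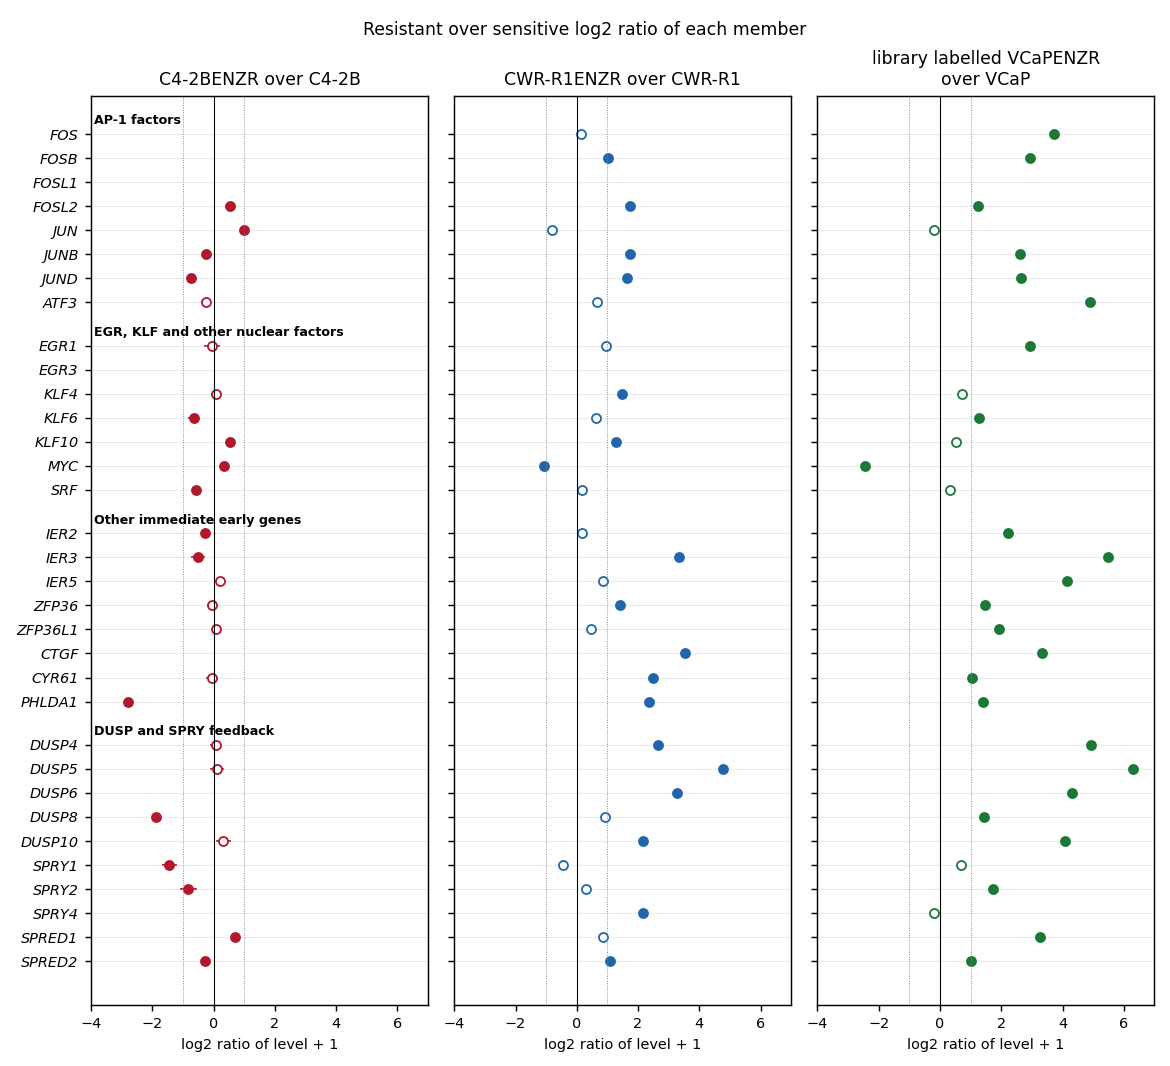
Log2 ratio of level + 1, resistant over sensitive, for each member by role, with 1 panel per lineage; bars in the C4-2B panel are standard errors of the limma fit, filled points are members called in that comparison, open points those not called, dotted lines mark 2-fold, and members not listed or below the filter have no point. Most CWR-R1 and VCaP points lie right of 0, while the C4-2B points lie on both sides, with PHLDA1 at -2.80 the lowest.

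**Figure D2:**
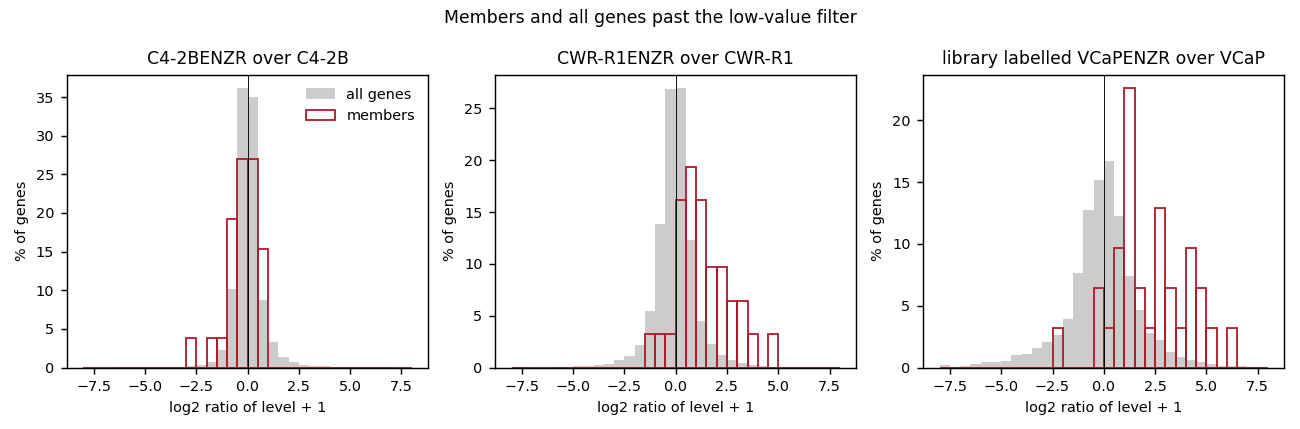
Distribution of the log2 ratio of level + 1 (x axis) as the percent of genes per bin (y axis), for members (red outline) and for all genes past the low-value filter (grey), with 1 panel per lineage. The members' median is -0.06 in C4-2B, 1.07 in CWR-R1 and 1.92 in the contrast of the library labelled VCaPENZR with VCaP.

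Among the AP-1 factors, JUN itself went one way and its relatives the other. JUN, the strongly transactivating founder of its family, had levels of 82.1 and 81.3 in C4-2BENZR against 39.7 and 41.5 in C4-2B. The means differed 2.01-fold without overlap, and the log2 difference of 0.99 ± 0.07 (SE, n = 2 each) passed the test (limma adjusted p = 8.23e-09). JUND, the family member with the most constant expression in many cells, had 125 and 139 in C4-2BENZR against 215 and 232 in C4-2B. It fell by 0.75 on the log2 scale, with SE 0.06 and no overlap (limma adjusted p = 3.86e-08). JUNB, whose protein can restrain JUN, had 66.0 and 68.9 in C4-2BENZR against 83.1 and 77.0 in C4-2B. Its decrease of 0.24 (log2 difference -0.24, limma adjusted p = 0.00693) was small, and the call was lost when C4-2BENZR replicate 1 (limma adjusted p = 0.101), C4-2BENZR replicate 2 (0.0513) or C4-2B replicate 1 (0.0714) was left out, and with total-count scaling (0.0869).

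In CWR-R1 the order was turned round. JUN had 39.1 in CWR-R1ENZR against 68.9 in CWR-R1, lower by 1.76-fold (95% interval 1.59 to 1.96) and under the 2-fold line. JUNB had 276 in CWR-R1ENZR against 81.9 in CWR-R1, a ratio of 3.37 (3.16 to 3.59). JUND had 487 in CWR-R1ENZR against 154 in CWR-R1, a ratio of 3.16 (3.02 to 3.32). So the resistant CWR-R1 library held less JUN and more JUNB and JUND than the sensitive one, where C4-2BENZR held more JUN and less of the other pair. In the library labelled VCaPENZR, JUNB had 235 against 37.6 in VCaP and JUND 656 against 104 in VCaP, ratios of 6.25 and 6.34. JUN was close in both, at 36.6 in the library labelled VCaPENZR against 42 in VCaP.

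Per kilobase of exon (GENCODE 29 lengths of 3540, 1820 and 1863 bases for JUN, JUNB and JUND), JUN made up 18.3% and 16.9% of the summed JUN family level in C4-2BENZR against 6.52% and 6.56% in C4-2B. In CWR-R1ENZR its share was 2.60% against 13.2% in CWR-R1, and in the library labelled VCaPENZR 2.10% against 13.5% in VCaP. JUND was the most abundant per length in all 8 libraries, with 53.0% and 55.1% in C4-2BENZR against 66.9% and 69.7% in C4-2B. Its share was 61.6% in CWR-R1ENZR against 56.2% in CWR-R1, and 71.6% in the library labelled VCaPENZR against 63.1% in VCaP.

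**Figure D3:**
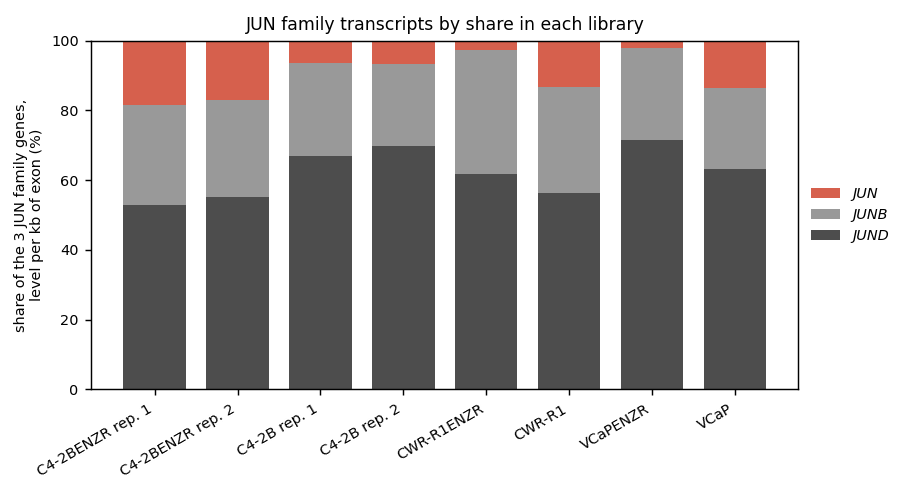
Stacked bars give the share of JUN, JUNB and JUND in the summed JUN family level per kilobase of exon (y axis, percent) for each of the 8 libraries. The JUN share is 18.3% and 16.9% in C4-2BENZR against 6.52% and 6.56% in C4-2B, and 2.60% in CWR-R1ENZR against 13.2% in CWR-R1.

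The FOS side of AP-1 was sparse in C4-2B cells. There FOSL2 and FOSB were the FOS genes listed. FOSL2, a FOS relative without the strong transactivation domain, had 22.4 and 26.6 in C4-2BENZR against 15.9 and 17.4 in C4-2B. All resistant values lay above the sensitive ones, and it rose by 0.53 ± 0.12 (log2 difference ± SE, n = 2 each, limma adjusted p = 0.00166). Without C4-2BENZR replicate 2 the adjusted p was 0.0849. FOSB stayed below the filter, with 0.331 and 0.695 in C4-2BENZR against 0.361 and 0.725 in C4-2B, from 7 to 14 reads. ATF3, a stress-induced factor of the same leucine zipper class, had 19.8 and 22.9 in C4-2BENZR against 22.9 and 29.0 in C4-2B. Its log2 difference was -0.26 ± 0.13 (limma adjusted p = 0.0845), a p that reached 0.0304 with a replicate block and 0.0230 without C4-2B replicate 1.

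FOS itself was nearly equal in the CWR-R1 pair, with 13.0 in CWR-R1ENZR against 11.9 in CWR-R1, a ratio of 1.09 (0.888 to 1.35). FOSL2 had 56.0 in CWR-R1ENZR against 16.1 in CWR-R1, a ratio of 3.49 (3.02 to 4.05). FOSB had 7.24 in CWR-R1ENZR against 3.04 in CWR-R1, a ratio of 2.38 (1.67 to 3.46). That FOSB ratio was under 2-fold with a pseudocount of 5 (log2 ratio 0.61). FOSL1, a FOS relative driven by sustained ERK signalling, did not pass the filter, with 4.83 (72 reads) in CWR-R1ENZR against 0.540 (8 reads) in CWR-R1, a ratio of 8.94 (4.30 to 21.5). ATF3 had 54.9 in CWR-R1ENZR against 34.7 in CWR-R1. In all, 4 of 7 AP-1 factors past the filter were at least 2-fold higher in CWR-R1ENZR and 0 lower, with a median log2 ratio of 1.03. Over all genes 9.79% were that much higher and 10.3% lower. FOSB passed only through CWR-R1ENZR, so it adds no support to that count.

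In the library labelled VCaPENZR, 6 of 7 AP-1 factors were at least 2-fold higher than in VCaP and 0 lower, with a median log2 ratio of 2.65. Over all genes 21.1% were that much higher and 22.0% lower. FOS, FOSB and ATF3 passed the filter only through the library labelled VCaPENZR, so they add no support to that count. FOS had 26.0 in the library labelled VCaPENZR against 1.02 in VCaP, a ratio of 25.3 (15.8 to 43.2). ATF3 had 101 in that library against 2.45 in VCaP, a ratio of 41.3 (30.5 to 57.3). VCaP stood out as the library with the fewest FOS and ATF3 reads among the tables that list both, at 18 and 43 reads. FOSB had 8.75 in the library labelled VCaPENZR against 0.285 in VCaP (5 reads), and FOSL2 had 71.2 in the library labelled VCaPENZR against 29.6 in VCaP. FOSL1, below the filter again, had 4.53 in the library labelled VCaPENZR against 0.398 in VCaP (7 reads).

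**Figure D4:**
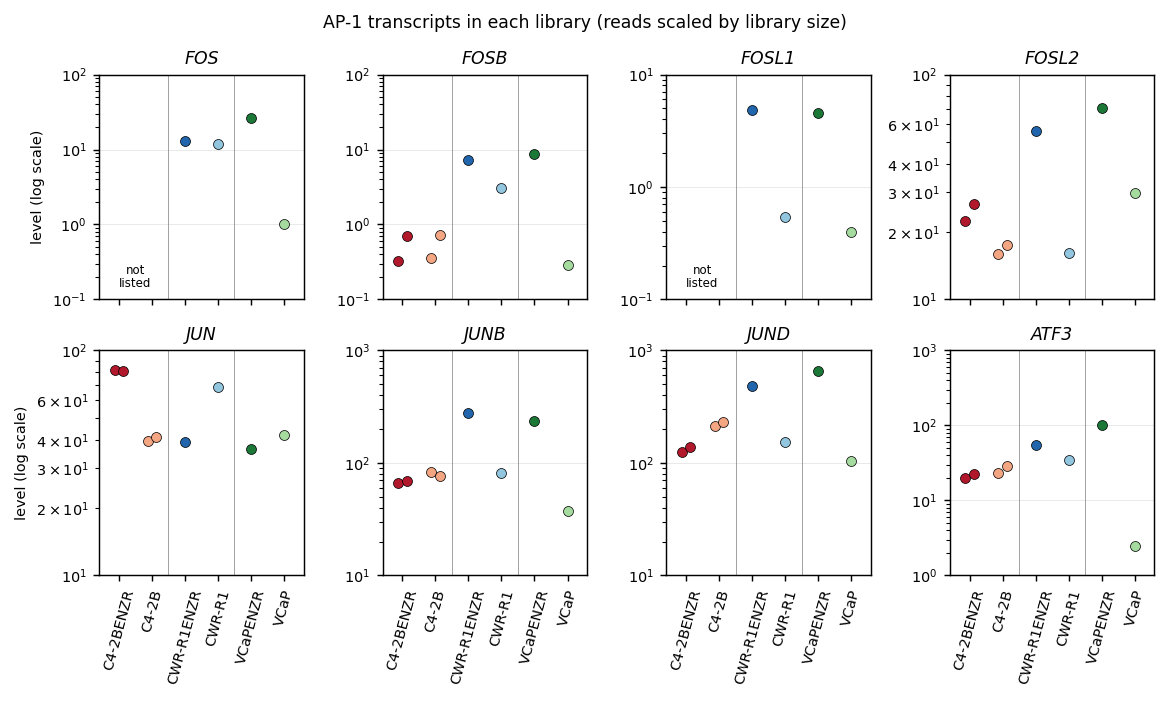
Level (reads scaled by library size, log axis) of the 8 AP-1 factors in each library, resistant left of sensitive within each lineage; each point is 1 library and tables were scaled separately. JUN is highest in C4-2BENZR at 82.1 and 81.3, whereas JUNB and JUND are highest in CWR-R1ENZR and the library labelled VCaPENZR.

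Of the 6 EGR, KLF and other nuclear factors tested in C4-2B, 2 rose, 2 fell and 2 did not pass, with a median log2 ratio of 0.01. The called share was 66.7%, against 56.8% of all genes. SRF, the serum response factor that drives many immediate early promoters through the CArG box, had 73.6 and 74.1 in C4-2BENZR against 111 and 110 in C4-2B. The groups were far apart relative to their spread, and SRF fell by 0.58 ± 0.06 on the log2 scale (SE, n = 2 each, limma adjusted p = 7.34e-07). KLF6, a growth-restraining zinc finger factor, had 7.99 and 11.2 in C4-2BENZR against 15.9 and 15.1 in C4-2B, and fell by 0.66 (limma adjusted p = 0.00211). Without C4-2BENZR replicate 1, the KLF6 adjusted p was 0.0838.

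MYC, the growth-promoting factor induced early by mitogens, had 298 and 306 in C4-2BENZR against 229 and 245 in C4-2B and rose by 0.35 ± 0.05 (log2 difference ± SE, limma adjusted p = 2.82e-05). KLF10, a TGF-beta-inducible repressor, had 36.8 and 36.8 in C4-2BENZR against 27.2 and 23.3 in C4-2B and rose by 0.53 (limma adjusted p = 0.000329). Neither gene's groups overlapped. EGR1, the zinc finger factor whose promoter is printed above, lay near the filter level of 1, with 0.898 and 1.10 in C4-2BENZR against 1.13 and 0.983 in C4-2B, from 19 to 22 reads a library. Its groups overlapped (log2 difference -0.04 ± 0.23, limma adjusted p = 0.886). KLF4, known for a role in epithelial differentiation, had 15.3 and 14.9 in C4-2BENZR against 14.0 and 14.7 in C4-2B (log2 difference 0.07, limma adjusted p = 0.688).

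MYC had 197 in CWR-R1ENZR against 411 in CWR-R1, lower by 2.09-fold (2.00 to 2.18), the 1 member at least 2-fold lower there. With total-count scaling its log2 ratio was -0.98, under 2-fold. MYC had 80.4 in the library labelled VCaPENZR against 446 in VCaP, lower by 5.55-fold (5.24 to 5.88), also the 1 member at least 2-fold lower. Of the EGR and KLF genes, KLF4 and KLF10 were at least 2-fold higher in CWR-R1ENZR. KLF4 had 64.7 in CWR-R1ENZR against 22.9 in CWR-R1, a ratio of 2.83 (2.50 to 3.21). KLF10 had 130 in CWR-R1ENZR against 53.0 in CWR-R1, a ratio of 2.45 (2.25 to 2.66).

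EGR1 stood higher in the other tables than in that of C4-2B, though tables were scaled separately. It had 76.0 (1134 reads) in CWR-R1ENZR against 38.7 (573 reads) in CWR-R1, a ratio of 1.97 (1.78 to 2.18) that lay just under the 2-fold line and just over it with total-count scaling (log2 ratio 1.04). EGR1 had 66.4 in the library labelled VCaPENZR against 7.86 in VCaP, a ratio of 8.46 (7.08 to 10.2). KLF6 had 39.9 in CWR-R1ENZR against 25.4 in CWR-R1, and 48.7 in the library labelled VCaPENZR against 19.6 in VCaP. SRF was under 2-fold in both, with 83.8 in CWR-R1ENZR against 74.9 in CWR-R1, and 54.7 in the library labelled VCaPENZR against 43.5 in VCaP. Of 6 such factors past the filter, 2 were at least 2-fold higher and 1 lower in each of the CWR-R1 and VCaP contrasts, with median log2 ratios of 0.79 and 0.62. Over all genes 9.79% were that much higher and 10.3% lower in CWR-R1, and 21.1% and 22.0% in the VCaP contrast. The rest of the 6 factors were under 2-fold. Those not yet named are KLF4 and KLF10 in VCaP, at 82.3 in the library labelled VCaPENZR against 50.2 in VCaP, and 83.8 in the library labelled VCaPENZR against 57.4 in VCaP. EGR3, a relative of EGR1, was below the filter, with 2.41 in CWR-R1ENZR against 1.96 in CWR-R1 and 2.56 in the library labelled VCaPENZR against 0.342 in VCaP.

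PHLDA1 made the largest change of any member in C4-2B, where it fell, while it was higher in CWR-R1ENZR than in CWR-R1. It encodes a pleckstrin homology-like protein linked to growth arrest and apoptosis, and is a known ERK-inducible transcript. Its levels were 15.9 and 13.8 in C4-2BENZR against 103 and 115 in C4-2B. The means differed 7.34-fold with no overlap, and PHLDA1 fell by 2.80 ± 0.09 on the log2 scale (SE, n = 2 each, limma adjusted p = 4.99e-13). In CWR-R1 it had 39.2 in CWR-R1ENZR against 6.88 in CWR-R1, a ratio of 5.70 (4.61 to 7.10). It had 21.1 in the library labelled VCaPENZR against 7.34 in VCaP, a ratio of 2.87 (2.34 to 3.54). Sensitive C4-2B thus held the most PHLDA1 among the sensitive libraries, and C4-2BENZR the least among the resistant ones, on scales set table by table.

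Of the 7 other immediate early genes tested in C4-2B, 0 rose, 3 fell (PHLDA1, IER2 and IER3) and 4 did not pass, with a median log2 ratio of -0.06. The called share was 42.9%, against 56.8% of all genes. None of the 7 rose at an unadjusted p below 0.05 in limma either, and edgeR and DESeq2 also called 0 higher. IER2, a nuclear protein induced early by serum, had 64.4 and 59.6 in C4-2BENZR against 77.2 and 75.3 in C4-2B and fell by 0.29 (limma adjusted p = 0.00200), a p of 0.0580 without C4-2BENZR replicate 2. IER3, a stress-response gene that modulates survival and ERK signalling, had 2.03 and 2.43 in C4-2BENZR against 3.77 and 3.47 in C4-2B and fell by 0.52 (limma adjusted p = 0.0381). The IER3 call was lost in edgeR (adjusted p = 0.0773), in DESeq2 (adjusted p = 0.161) and without any 1 of the 4 libraries (limma adjusted p 0.0653 to 0.154). IER5, ZFP36, ZFP36L1 and CYR61 had log2 differences between -0.06 and 0.21 and limma adjusted p from 0.152 to 0.798. IER5 reached an adjusted p of 0.0358 with total-count scaling and 0.0304 without C4-2B replicate 2.

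CTGF and CYR61, matricellular proteins known as targets of the YAP and TEAD factors as well as of serum, stood out in CWR-R1. CTGF, whose promoter with 3 GGAATG matches is printed above, had 175 in CWR-R1ENZR against 14.2 in CWR-R1, a ratio of 12.3 (10.7 to 14.2). CYR61 had 95.5 in CWR-R1ENZR against 16.1 in CWR-R1, a ratio of 5.95 (5.18 to 6.85). IER3 had 105 in CWR-R1ENZR against 9.45 in CWR-R1, a ratio of 11.1 (9.32 to 13.3). ZFP36, an mRNA-destabilising protein, had 68.5 in CWR-R1ENZR against 24.9 in CWR-R1, a ratio of 2.75 (2.44 to 3.11). Together with PHLDA1 these were the 5 of 8 at least 2-fold higher, against 9.79% of all genes. The median log2 ratio over all 8 was 1.89. The remaining 3 were IER5 at 142 in CWR-R1ENZR against 78.4 in CWR-R1, ZFP36L1 at 149 in CWR-R1ENZR against 107 in CWR-R1, and IER2 at 256 in CWR-R1ENZR against 227 in CWR-R1.

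All 8 of these genes were at least 2-fold higher in the library labelled VCaPENZR than in VCaP, with a median log2 ratio of 2.07. Over all genes 21.1% were that much higher. IER3, IER5 and CTGF passed the filter only through the library labelled VCaPENZR, so they add no support to that count. IER3 had 56.2 in the library labelled VCaPENZR against 0.285 in VCaP, where it had 5 reads, a ratio of 197 with an interval from 84.3 to 610. CTGF had 14.7 in the library labelled VCaPENZR against 0.569 in VCaP (10 reads), a ratio of 25.8 (13.8 to 54.5). IER5, a heat shock and p53 response gene, had 104 in the library labelled VCaPENZR against 4.90 in VCaP, a ratio of 21.3 (17.2 to 26.8). VCaP had very few reads of these 3 genes. IER2 had 162 in the library labelled VCaPENZR against 33.9 in VCaP, and ZFP36L1 had 89.7 in the library labelled VCaPENZR against 23.0 in VCaP. ZFP36 had 54.5 in the library labelled VCaPENZR against 19.0 in VCaP. CYR61 was the closest to the line, at 27.5 in the library labelled VCaPENZR against 12.8 in VCaP, and under 2-fold with a pseudocount of 5 (log2 ratio 0.87).

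Among the 33 members, the widest ratio of the CWR-R1 pair was that of a feedback gene. DUSP5, a nuclear phosphatase of ERK, had 70.2 (1047 reads) in CWR-R1ENZR against 1.62 (24 reads) in CWR-R1, a ratio of 43.3 (29.0 to 67.9). DUSP6, the cytoplasmic phosphatase of ERK and a widely used readout of its activity, had 95 in CWR-R1ENZR against 8.97 in CWR-R1, a ratio of 10.6 (8.86 to 12.7). DUSP4, a nuclear phosphatase of ERK, JNK and p38, had 327 in CWR-R1ENZR against 51.8 in CWR-R1, a ratio of 6.31 (5.85 to 6.82). DUSP6 and DUSP4 were both higher in the resistant library, by more than 5-fold at the lower bound of each interval, which covers counting error only. DUSP5 passed the filter only through CWR-R1ENZR, so its direction was set by the filter. DUSP10, a phosphatase of JNK and p38, had 52.1 in CWR-R1ENZR against 11.0 in CWR-R1, a ratio of 4.74 (4.0 to 5.65). DUSP8, of the same substrate class, had 70.9 in CWR-R1ENZR against 36.9 in CWR-R1, a ratio of 1.92 (1.73 to 2.13).

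The Sprouty genes were not uniform in CWR-R1. SPRY4 had 28.2 in CWR-R1ENZR against 5.46 in CWR-R1, a ratio of 5.16 (4.06 to 6.63). SPRY1 had 19.8 in CWR-R1ENZR against 27.6 in CWR-R1, lower by 1.39-fold (1.19 to 1.62). SPRY2 had 19.8 in CWR-R1ENZR against 15.9 in CWR-R1, a ratio of 1.25 (1.05 to 1.49). One Sprouty gene was thus well above its sensitive level and another below it. SPRED2, a Sprouty-related inhibitor of RAF activation, had 110 in CWR-R1ENZR against 51.8 in CWR-R1, a ratio of 2.13 (1.95 to 2.32), and its relative SPRED1 had 54.1 in CWR-R1ENZR against 29.4 in CWR-R1. In all, 6 of the 10 feedback genes were at least 2-fold higher and 0 lower in CWR-R1ENZR, with a median log2 ratio of 1.61. Over all genes 9.79% were that much higher and 10.3% lower. DUSP5 passed the filter only through CWR-R1ENZR, so it adds no support to that count.

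In C4-2BENZR, 1 of 8 feedback genes was higher, 4 were lower and 3 did not pass the threshold, with a median log2 ratio of -0.10. The called share of 62.5% was close to the 56.8% of all genes. DUSP8, whose promoter with 2 TGACGTCA matches is printed above, had 12.5 and 12.1 in C4-2BENZR against 46.6 and 48.8 in C4-2B. The means differed 3.87-fold without overlap, and DUSP8 fell by 1.87 ± 0.10 on the log2 scale (SE, n = 2 each, limma adjusted p = 3.07e-10). SPRY1 had 1.18 and 2.20 in C4-2BENZR against 5.72 and 6.73 in C4-2B, from 25 to 130 reads, and fell by 1.45 ± 0.22 (limma adjusted p = 3.20e-05). SPRY2 had 0.709 and 0.521 in C4-2BENZR against 2.06 and 1.66 in C4-2B, from 9 to 40 reads. Since it passed the filter only through the C4-2B libraries, where it was high, its call adds no support to the count. Both Sprouty genes had few reads in all 4 libraries, lower in the resistant pair, and on the log2 scale of level + 1 their difference is understated.

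SPRED1 was the feedback gene that rose, with 27.3 and 24.6 in C4-2BENZR against 15.8 and 15.2 in C4-2B, by 0.70 ± 0.12 on the log2 scale (SE, n = 2 each, limma adjusted p = 8.12e-05). SPRED2 had 30.3 and 32.0 in C4-2BENZR against 37.4 and 38.1 in C4-2B, and fell by 0.27 (limma adjusted p = 0.0183). So the SPRED pair moved in opposite directions, although the SPRED2 call was lost in DESeq2 (adjusted p = 0.0643), with total-count scaling (limma adjusted p = 0.122) and without any 1 of the 4 libraries (limma adjusted p 0.0501 to 0.140). DUSP4, far apart in the CWR-R1 pair, had 11.1 and 12.0 in C4-2BENZR against 11.3 and 10.7 in C4-2B (log2 difference 0.06 ± 0.14, limma adjusted p = 0.727). DUSP5 had 3.45 and 3.42 in C4-2BENZR against 2.58 and 3.67 in C4-2B (log2 difference 0.12 ± 0.21, limma adjusted p = 0.653). DUSP10 had 5.01 and 6.89 in C4-2BENZR against 3.77 and 5.43 in C4-2B (log2 difference 0.31 ± 0.20, limma adjusted p = 0.201). For these 3 phosphatases the groups overlapped.

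In the library labelled VCaPENZR, 8 of 10 feedback genes were at least 2-fold higher than in VCaP and 0 lower, with a median log2 ratio of 2.50. Over all genes 21.1% were that much higher and 22.0% lower. DUSP5, DUSP6 and DUSP10 passed the filter only through the library labelled VCaPENZR, so they add no support to that count. DUSP5 had 241 in the library labelled VCaPENZR against 2.11 in VCaP, a ratio of 115 (83.0 to 163). DUSP4 had 915 in the library labelled VCaPENZR against 29.3 in VCaP, a ratio of 31.2 (28.6 to 34.1). DUSP6 had 67.3 in the library labelled VCaPENZR against 2.45 in VCaP, a ratio of 27.5 (20.3 to 38.2). These ERK phosphatases had the widest ratios of the 10 feedback genes. DUSP10 had 60.8 in the library labelled VCaPENZR against 2.62 in VCaP, a ratio of 23.2 (17.3 to 31.9). SPRED1 had 61.3 in the library labelled VCaPENZR against 5.46 in VCaP, a ratio of 11.2 (9.09 to 14.0). SPRY2 had 19.4 in the library labelled VCaPENZR against 5.12 in VCaP, a ratio of 3.79 (2.99 to 4.84). The SPRY4 ratio of the CWR-R1 pair had no counterpart here, at 38.8 in the library labelled VCaPENZR against 44.2 in VCaP. DUSP8 had 83.1 in the library labelled VCaPENZR against 29.8 in VCaP. SPRED2 lay just inside the line at 110 in the library labelled VCaPENZR against 54.6 in VCaP (log2 ratio 0.98 with median-of-ratios scaling and 0.95 with a pseudocount of 5), and SPRY1 lay outside it at 30.7 in the library labelled VCaPENZR against 18.9 in VCaP.

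**Figure D5:**
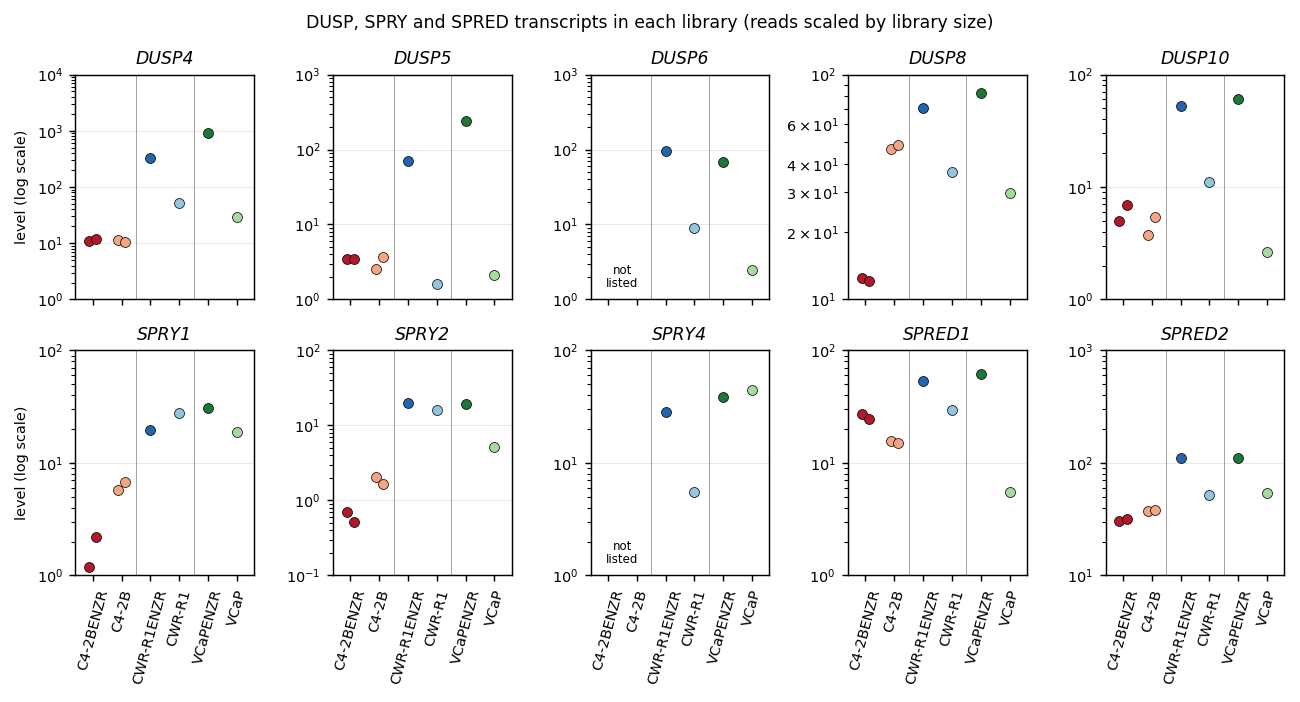
Level (reads scaled by library size, log axis) of the 10 DUSP, SPRY and SPRED genes in each library, resistant left of sensitive within each lineage; each point is 1 library and tables were scaled separately. DUSP4, DUSP5, DUSP6 and DUSP10 are higher in CWR-R1ENZR and in the library labelled VCaPENZR than in their sensitive counterparts, while DUSP8, SPRY1 and SPRY2 are lower in C4-2BENZR than in C4-2B.

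Because the library labelled VCaPENZR resembled CWR-R1ENZR across all genes, the members were also set against that library, in RPM, reads scaled to each library's total over the 13910 genes of both tables. Of 31 members past the filter, 5 were at least 2-fold apart, where 14.2% of 12078 genes were. The median absolute log2 difference of the members was 0.45 there, against 0.40 over all genes, and 2.31 for the members between the library labelled VCaPENZR and VCaP. For that last contrast no all-gene median is given, and by level 43.1% of all genes were at least 2-fold apart. Its 2.31 includes members, such as FOS and DUSP5, that passed the filter only through the library labelled VCaPENZR, so it adds no support. Among the 5, DUSP5 had 249.7 RPM in the library labelled VCaPENZR against 72.3 in CWR-R1ENZR, and DUSP4 had 947 RPM in the library labelled VCaPENZR against 337 in CWR-R1ENZR. MYC was lower, at 83.2 RPM in the library labelled VCaPENZR against 203 in CWR-R1ENZR. CTGF had 15.2 RPM in the library labelled VCaPENZR against 181 in CWR-R1ENZR, and CYR61 28.5 RPM in the library labelled VCaPENZR against 98.4 in CWR-R1ENZR.

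Genes around the members were counted from lists of related function. Of 18 further immediate early genes tested in C4-2B, 6 rose and 5 fell, with a median log2 ratio of 0.12. The called share of 61.1% in C4-2B was close to the 56.8% of all genes. In CWR-R1ENZR, 5 of 17 stood at least 2-fold above CWR-R1 and 1 below it (median 0.62), and in the VCaP contrast 9 of 16 higher and 3 lower (median 1.25). Of all genes, 20.1% were at least 2-fold apart in either direction in CWR-R1 and 43.1% in the VCaP contrast. ARC, an activity-regulated gene best known from neurons, averaged 1.59 ± 0.287 in C4-2BENZR and 16.7 ± 0.371 in C4-2B (SD, n = 2 each), a log2 difference of -2.77 (limma adjusted p = 1.40e-09). IER5L, a relative of IER5, had 229 in CWR-R1ENZR against 34.6 in CWR-R1, whereas it averaged 7.39 ± 0.0288 in C4-2BENZR and 12.2 ± 0.104 in C4-2B (SD, n = 2 each, limma adjusted p = 0.00130). The ERK phosphatase DUSP2 was higher in both, at 154 in CWR-R1ENZR against 23.8 in CWR-R1, and 92.1 ± 4.50 in C4-2BENZR against 41.6 ± 3.33 in C4-2B (SD, n = 2 each, limma adjusted p = 3.60e-09). BTG2, an antiproliferative gene, was higher in both as well, at 64.5 in CWR-R1ENZR against 13.2 in CWR-R1, and 42.8 ± 2.73 in C4-2BENZR against 22.6 ± 1.37 in C4-2B (SD, n = 2 each, limma adjusted p = 1.01e-06).

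ERK output genes outside the members split, with 4 of 13 higher and 5 lower in C4-2BENZR (median 0.10), 3 of 16 higher and 2 lower in CWR-R1ENZR (median -0.05), and 6 of 11 higher and 3 lower in the library labelled VCaPENZR (median 1.65). Called shares were 69.2%, 31.2% and 81.8% in turn, against 56.8%, 20.1% and 43.1% of all genes. LIF, a cytokine, had 16.3 in CWR-R1ENZR against 0.877 in CWR-R1, and averaged 9.37 ± 0.388 in C4-2BENZR and 2.25 ± 0.554 in C4-2B (SD, n = 2 each, limma adjusted p = 1.30e-06). ETV4, an ETS factor and common marker of ERK output, had 50.7 in CWR-R1ENZR against 13.3 in CWR-R1, and averaged 2.63 ± 0.285 in C4-2BENZR and 0.465 ± 0.291 in C4-2B (SD, n = 2 each). ETV4, SPRY3 and ETV5 passed the C4-2B filter only through the group where each was high, so their calls add no support to the counts. SPRED3 had 18.4 in CWR-R1ENZR against 2.70 in CWR-R1, and HMGA2, a chromatin protein, 3.82 in CWR-R1ENZR against 16.7 in CWR-R1. LIF and SPRED3 passed the filter of that pair only through CWR-R1ENZR, and HMGA2 only through CWR-R1. Each was high there, so these ratios add no support to the CWR-R1 counts.

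The kinase cascade itself, from RAS to ERK, had 8 of 23 genes higher and 6 lower in C4-2BENZR (median 0.04), 2 of 24 higher and 1 lower in CWR-R1ENZR (median 0.13), and 3 of 23 higher and 3 lower in the library labelled VCaPENZR (median 0.16). Called shares were 60.9%, 12.5% and 26.1% in turn, against 56.8%, 20.1% and 43.1% of all genes. KSR2, a scaffold of RAF and MEK, averaged 7.77 ± 0.506 in C4-2BENZR and 1.40 ± 0.369 in C4-2B (SD, n = 2 each, limma adjusted p = 6.59e-07). RASGRP1, an activator of RAS, averaged 3.97 ± 0.130 in C4-2BENZR and 0.878 ± 0.217 in C4-2B (SD, n = 2 each). Its C4-2B levels of 1.03 and 0.725 alone would not have passed the filter, so its call adds no support to the count. RASAL1, a RAS inactivator, had 8.98 in CWR-R1ENZR against 2.02 in CWR-R1. It passed the filter only through CWR-R1ENZR, where it was high, so it adds no support to the CWR-R1 count. PEBP1, an inhibitor of RAF, had 580 in CWR-R1ENZR against 1532 in CWR-R1.

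Among the EGF family, 4 of 8 genes were higher and 3 lower in C4-2BENZR (median 0.20), 2 of 8 higher and 1 lower in CWR-R1ENZR (median -0.04), and 5 of 9 higher and 1 lower in the library labelled VCaPENZR (median 1.46). Called shares were 87.5%, 37.5% and 66.7% in turn, against 56.8%, 20.1% and 43.1% of all genes. HBEGF, a ligand of EGFR that is itself an ERK-inducible gene, had 395 in CWR-R1ENZR against 8.30 in CWR-R1, a ratio of 47.6 (39.8 to 57.4). ERBB2, the receptor tyrosine kinase HER2, had 662 in CWR-R1ENZR against 153 in CWR-R1. In C4-2BENZR the ligands parted: EGF averaged 1.75 ± 0.0665 in C4-2BENZR and 16.5 ± 0.772 in C4-2B (SD, n = 2 each, limma adjusted p = 1.54e-09), while TGFA averaged 8.38 ± 0.638 in C4-2BENZR and 1.81 ± 1.10 in C4-2B (SD, n = 2 each, limma adjusted p = 7.42e-06).

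The JNK and p38 kinases and their phosphatases had 1 of 15 higher and 7 lower in C4-2BENZR (median -0.16), 2 of 14 higher and 1 lower in CWR-R1ENZR (median 0.15), and 3 of 15 higher and 3 lower in the library labelled VCaPENZR (median 0.22). Called shares were 53.3%, 21.4% and 40.0% in turn, close to the 56.8%, 20.1% and 43.1% of all genes. MAPK13, a p38 kinase, averaged 27.3 ± 2.78 in C4-2BENZR and 73.3 ± 4.93 in C4-2B (SD, n = 2 each, limma adjusted p = 1.85e-09), but had 25.2 in CWR-R1ENZR against 2.29 in CWR-R1. In that pair MAPK13 passed the filter only through CWR-R1ENZR, where it was high, so it adds no support to the CWR-R1 count. MAP3K5, a stress-activated kinase of that cascade, had 39.1 in CWR-R1ENZR against 16.0 in CWR-R1, and MAPKAPK2, a p38 substrate, had 435 in CWR-R1ENZR against 919 in CWR-R1.

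SRF and TEAD cofactors and targets had 6 of 18 higher and 5 lower in C4-2BENZR (median -0.03), 6 of 19 higher and 1 lower in CWR-R1ENZR (median 0.30), and 7 of 18 higher and 4 lower in the library labelled VCaPENZR (median 0.37). Called shares were 61.1%, 36.8% and 61.1% in turn, against 56.8%, 20.1% and 43.1% of all genes. AMOTL2, a YAP-induced inhibitor of YAP, had 87.9 in CWR-R1ENZR against 15.7 in CWR-R1, beside the higher CTGF and CYR61 there. AJUBA, a LIM protein of the same pathway, had 116 in CWR-R1ENZR against 41.8 in CWR-R1, and tissue factor, F3, had 5.56 in CWR-R1ENZR against 1.01 in CWR-R1. F3 passed the filter only through CWR-R1ENZR, where it was high, so it adds no support to the CWR-R1 count. VCL, the SRF target vinculin, went the other way, with 340 in CWR-R1ENZR against 985 in CWR-R1. Dimer partners of AP-1 had 3 of 8 higher and 0 lower in C4-2BENZR (median 0.19; 0 lower also at an unadjusted limma p below 0.05 and in edgeR and DESeq2), 2 of 7 higher and 0 lower in CWR-R1ENZR (median 0.24), and 2 of 7 higher and 1 lower in the library labelled VCaPENZR (median 0.58). For these partners the called shares were 37.5%, 28.6% and 42.9% in turn, against the same shares of all genes. The small MAF factor MAFK was higher in both CWR-R1ENZR and C4-2BENZR, at 258 in CWR-R1ENZR against 67.5 in CWR-R1, and 84.1 ± 1.30 in C4-2BENZR against 57.2 ± 4.72 in C4-2B (SD, n = 2 each, limma adjusted p = 8.77e-06). MAFG had 186 in CWR-R1ENZR against 59.8 in CWR-R1, and BATF3, a partner of JUN proteins, averaged 1.51 ± 0.326 in C4-2BENZR and 0.232 ± 0.182 in C4-2B (SD, n = 2 each). BATF3 had 1 read in CWR-R1ENZR against 39 in CWR-R1, below the filter there. In C4-2B it passed only through C4-2BENZR, where it was high, as did FHL2 among the SRF and TEAD genes, so these calls add no support to the counts.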

How the data were processed

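Polyadenylated RNA of 8 cell line libraries was sequenced as paired ends, per the labels. Per the submitters' processing notes the build was hg19. Aligner, read counter and any use of strand were not given in the sources used here, so reads of overlapping genes cannot be told apart. The authors deposited 1 table per lineage with signal values per library (gene counts divided by a scaled library size) and a signed fold score, p-value and false discovery rate per gene. Within a tolerance of 0.02 reads, 100% of the deposited signal values were whole multiples of 1 read, and reads were recovered from them. A level of 0.142 to 0.202 corresponds to 3 reads, and intervals cover counting error only.

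The members, lists and tests were chosen with earlier results of these data known. C4-2BENZR and C4-2B were compared with limma 3.58.1 (R 4.3.3, trend) on log2(level + 1), over genes with a level of at least 1 in at least 2 libraries, with Benjamini-Hochberg adjustment over all genes tested and a threshold of 0.05, two-sided. The plan named edgeR for raw counts; the deposited unit was scaled counts, so edgeR 4.0.16 and DESeq2 1.42.0 ran on recovered reads as alternatives. CWR-R1 and VCaP ratios used genes with a level of at least 5 in 1 library, called at 2-fold, without a test. Fold changes on this scale understate the change of low genes. The script was tested on simulated data. All members are accounted for, with library values for those past 2-fold in any table; from each list up to 4 genes with the largest ratio called in C4-2B or CWR-R1 are named. Promoters came from RefSeq (GRCh38.p14), so no file coordinates were used; exon lengths came from GENCODE 29. Alternatives were other scalings, tests, filters, pseudocounts, folds, a replicate block and leaving out libraries. Python 3.11.15 was used for the rest.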

Additional observations from a re-analysis of the deposited data

Results flagged for a closer look

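For 16 pairs of a member and another table, every library of C4-2BENZR lay on one side of C4-2B with a passed test, and the library labelled resistant in another table lay at least 2-fold to the opposite side of the sensitive library of that table. No share of such pairs over all genes is given, so the count is only a list. SPRY2 in C4-2B and IER3 in the VCaP contrast passed the filter only where they were high, and add no support. The C4-2B calls of JUNB, IER3, SPRED2, KLF6 and IER2 were each lost when at least 1 library was left out. The difference between tables was not tested, since CWR-R1 and VCaP have 1 library a group, and each value below is the log2 ratio in that table minus that in C4-2B.

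Between CWR-R1 and C4-2B the difference was 5.15 for PHLDA1, 3.86 for IER3, 2.41 for JUND, 1.98 for JUNB, 1.34 for SPRED2 and -1.41 for MYC. PHLDA1, IER3, JUND, JUNB and SPRED2 were thus lower in C4-2BENZR and higher in CWR-R1ENZR, and MYC the reverse. Between the contrast of the library labelled VCaPENZR with VCaP and that of C4-2B, the difference was 5.99 for IER3, 4.20 for PHLDA1, 3.41 for JUND, 3.32 for DUSP8, 2.86 for JUNB, 2.56 for SPRY2, 2.52 for IER2, 1.93 for KLF6, 1.27 for SPRED2 and -2.81 for MYC. That library goes against its label, as its ERG and its likeness to CWR-R1ENZR show, so these 10 values describe that library and not the VCaP lineage.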

How the results depend on the processing

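The 5 members higher in C4-2BENZR became 4 to 6 under the other settings. The 11 lower became 8 with total-count scaling, 9 with DESeq2 or a filter at 5, 10 with edgeR or a pseudocount of 0.1, and 7 to 9 when each library was left out. With a replicate block the counts were 5 higher and 12 lower, ATF3 being the call gained, where 4036 of all genes were higher and 4212 lower. The labels do not say what a replicate number shares, and over 13280 genes the deviations of same-numbered libraries correlated with r = 0.05, and with r = 0.12 over the 11048 genes of mean level at least 5, from 2 pairs. In CWR-R1ENZR, the 17 members higher at 2-fold became 9 at 4-fold and the 1 lower became 0 with total-count scaling or at 4-fold and 2 at 1.5-fold. In the library labelled VCaPENZR, the 24 higher became 15 at 4-fold and the 1 lower was 1 throughout. No share of all genes at 4-fold or 1.5-fold is given, so those counts stand without a background. The cause was not tested, beyond fewer libraries and stricter folds.

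Signs turned only for members that did not pass the test in C4-2B. With total-count scaling the log2 difference was 0.0079 for EGR1, 0.0422 for ZFP36 and 0.0324 for CYR61. When each library was left out it ranged between -0.117 and 0.0296 for EGR1, -0.123 and 0.0155 for ZFP36, -0.234 and 0.119 for CYR61, and -0.0767 and 0.309 for DUSP5. Over all settings, 300 single-member values in C4-2B kept direction and call, 21 lost and 4 gained it. In the other lineages 250 stayed within and 60 left their counting interval, with no change of sign. Depth limits FOSB, EGR1, SPRY1 and SPRY2 in C4-2B cells, and IER3, FOSB and CTGF in VCaP, each resting on few reads. Unreplicated ratios in CWR-R1 and VCaP cannot be set against biological spread.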
